A study of Mus musculus with 2 samples.

Results

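The genes described here are 10 targets, subunits and feedback inhibitors of the NF-kappaB transcription factor: Nfkbia, Nfkbiz, Tnfaip3, Zfp36, Nfkb1, Nfkb2, Relb, Tnf, Il6 and Tnfaip2. They were chosen by symbol, without use of their values, and are 10 of the 31053 genes in the deposited matrices, with 1 entry each. They were followed across the cell types of the peritoneal cavity in the 2 libraries of the series. Both libraries hold total peritoneal cells collected 3 days after mice aged 10 to 14 weeks received 1 mg of zymosan, a yeast cell wall preparation that causes sterile peritonitis, in the resolution phase per the series title. The Cd36-/- library was prepared from animals of the strain LysM-Cre (x) floxed CD36, in which a Cre acts in macrophages, neutrophils and other myeloid cells. The Cd36 fl/fl animals are given as floxed CD36, and no Cre is named for them. All mice thus carried the floxed allele and received zymosan, and no untreated group was analysed here. Each library was 1 pool of 4 replicates, so genotype, pool and library cannot be told apart, and no difference below has a replicate check or a test.

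NF-kappaB is a family of dimers built from REL proteins. In resting cells the dimers are held in the cytoplasm by IkB proteins; receptors for microbes and cytokines trigger IkB destruction, and the freed dimers enter the nucleus and switch on inflammatory genes. Some of the first genes switched on encode inhibitors of the pathway itself, so the response limits its own length, and in macrophages this governs how inflammation starts and ends. The feedback inhibitors among the 10 genes are Nfkbia (IkB-alpha, which captures the dimers), Tnfaip3 (A20, an enzyme that edits ubiquitin on signalling proteins) and Zfp36 (tristetraprolin, which marks the mRNAs of Tnf and other cytokines for decay). Nfkbiz encodes IkB-zeta, a nuclear IkB that is needed for a later set of targets that includes Il6. Nfkb1, Nfkb2 and Relb encode subunits, the last pair serving the alternative pathway. Tnf and Il6 encode inflammatory cytokines, and Tnfaip2 a cytoplasmic protein induced by tumour necrosis factor.

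All 10 are protein-coding. On the mm10 build, in GENCODE M21, the feedback inhibitors lie at chr12:55489410-55492647 (Nfkbia), chr10:19000910-19015657 (Tnfaip3) and chr7:28376784-28380253 (Zfp36), and the nuclear IkB gene Nfkbiz at chr16:55811375-55838899. The subunits lie at chr3:135584655-135691547 (Nfkb1), chr19:46304320-46312385 (Nfkb2) and chr7:19606217-19629438 (Relb). The targets lie at chr17:35199381-35202007 (Tnf), chr5:30013114-30019981 (Il6) and chr12:111442469-111455018 (Tnfaip2). Nfkb1 overlaps another annotated gene on its own strand, and Nfkb2, Zfp36 and Tnfaip2 overlap genes on the opposite strand, so part of their reads could be assigned to, or come from, those neighbours.

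RefSeq promoter windows on GRCm38.p6, from 250 bases before to 50 bases after the start, were at hand for 7 of the 10 genes: Nfkbia, Tnfaip3, Tnf, Il6, Nfkb2, Zfp36 and Tnfaip2. Nfkbiz, Relb and Nfkb1 are named only. The kappaB consensus, a motif of 10 letters, was searched on both strands; since it is nearly a mirror image of itself, 1 site can match on both. It was found for 5 of the 7 genes, against 6.55% of the 27025 genes in the same table. A match shows only that the letters are there. Nfkbia is shown at full length because it is the gene that differed most between the libraries among those compared in macrophages; the run gives the 250 bases before its start on the minus strand, chr12:55492648-55492897, 5′ to 3′, with the match in capitals.
Nfkbia: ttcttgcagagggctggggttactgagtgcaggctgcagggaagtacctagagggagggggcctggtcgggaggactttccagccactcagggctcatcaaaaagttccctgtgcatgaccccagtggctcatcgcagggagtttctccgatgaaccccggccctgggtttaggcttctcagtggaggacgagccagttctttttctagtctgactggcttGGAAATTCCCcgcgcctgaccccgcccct
The matches of the other genes are shown with 10 bases on each side, each read along its own gene's strand, so that the sites can be compared with that of Nfkbia.
Tnfaip3: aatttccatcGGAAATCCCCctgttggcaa
Il6: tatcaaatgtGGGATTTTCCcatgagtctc
Nfkb2: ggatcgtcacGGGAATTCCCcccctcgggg
Tnfaip2: gactattttaGGAGGGCCCCtccagggtcg
The matches began 29 bases before the start in Nfkbia, 12 in Tnfaip3, 44 in Il6, 39 in Nfkb2 and 24 in Tnfaip2. Of the 3 Nfkb2 windows, each had at least 1 match, and the one printed matched on both strands. The windows of Tnf and Zfp36, and another window of Tnfaip3, held no match.

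The Cd36-/- library had 16543 barcodes with 116600732 UMIs (unique molecular identifiers, each standing for 1 captured RNA molecule), and the fl/fl library 15537 barcodes with 117238057. The filters left 15023 and 14005 cells, whose depths had medians of 6570 and 6897 UMIs. The libraries shared 383 barcodes, and the Nfkbia log2 ratio in macrophages was -0.35 with and without those cells. Cells were clustered without the 10 genes and related genes, and each name of a class means that it is like that type by its markers. Macrophages numbered 9408 and 7483, made up of large peritoneal macrophages (LPM, the resident type marked by Gata6; 3886 and 3131), macrophages with low Gata6 (5050 and 3812) and macrophages with MHC class II genes and Retnla (472 and 540). The leading genes of this last group included the insulin genes Ins1 and Ins2. An estimated 23.2% and 18.8% of its UMIs were free RNA, meaning RNA from outside the cell, against 13.7% and 12.2% in LPM and 12.8% and 10.9% in macrophages with low Gata6. B cells numbered 2940 and 4241, T cells 741 and 643, natural killer (NK) cells 526 and 355, type 2 conventional dendritic cells (cDC2) 331 and 428, and neutrophils 106 and 131. Cd36 itself stood in macrophages at 171 CPM (UMIs of a gene per 1000000 UMIs of the class) for Cd36-/- and 242 for fl/fl, a log2 ratio of -0.51 (-0.54 to -0.47), and in B cells at 32.8 and 31.6 CPM; counts from the 3′ end do not show which exons a transcript holds.

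All ratios are Cd36-/- over fl/fl, on counts summed over the cells of a class. The range after each value is its exact 95% interval from counting alone and holds nothing of how animals vary. A value pair gives Cd36-/- first and fl/fl second. A gene was compared in a class where it reached 20 CPM in at least 1 library and the class had 200 cells in each. A gene is called higher by size where it was at least 25% above the fl/fl level, and lower where it was at least 20% below it, which is the same fold; 1.5-fold was a stricter size. With counts this deep, 34.6% of the 4590 genes compared in macrophages had an interval wholly below 0 and 29.5% wholly above 0, so an interval that leaves out 0 is common.

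Nfkbia was the 1 feedback inhibitor of the 10 genes that was lower in Cd36-/- macrophages by over 20%. Its level was 253 CPM (250 to 257) for Cd36-/- and 322 CPM (318 to 326) for fl/fl, from 20333 and 23169 UMIs, a log2 ratio of -0.35 (-0.37 to -0.32), or 1.27-fold lower. In LPM the levels were 244 and 312 CPM, and in macrophages with low Gata6 259 and 331 CPM, each a log2 ratio of -0.35. MHC class II macrophages had 256 and 297 CPM, a log2 ratio of -0.21 (-0.34 to -0.09). The lower level was thus seen in macrophages with high and with low Gata6, with the same size in the 2 large groups. With the share of each cluster set equal in both libraries, the macrophage ratio was again -0.35.

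In lymphocytes Nfkbia was at nearly the same level in both libraries. B cells had 202 and 199 CPM, a log2 ratio of 0.02 (-0.05 to 0.09), and T cells 168 and 154 CPM, 0.12 (-0.09 to 0.34). NK cells had 133 and 130 CPM, 0.03 (-0.31 to 0.37). The B cell interval leaves out the size seen in macrophages, while that of NK cells nearly reaches it; the difference between classes was not tested. The summed level of 5 red cell genes was 65.8 and 9.12 CPM in B cells and 3.21 and 318 CPM in T cells. In NK cells it was 3.89 and 2051 CPM. A set of 8 macrophage markers summed to 552 and 383 CPM in B cells. This sum was 704 and 446 CPM in T cells and 792 and 552 CPM in NK cells. The part of both sets in these ratios was not tested. The cDC2 had 227 and 272 CPM, a log2 ratio of -0.26 (-0.41 to -0.12), but with every cell thinned to 1500 UMIs this was -0.11, and an Nfkbia UMI was then found in 30.3% and 29.8% of them. The summed level of 6 T cell markers in the cDC2 was 278 and 138 CPM, and its part in these values was not tested. Neutrophils, with 44 and 72 UMIs of Nfkbia, had 479 and 594 CPM, a log2 ratio of -0.31 (-0.89 to 0.25).

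The order of the classes by Nfkbia level differed in part between the libraries. In the fl/fl library macrophages with low Gata6 were highest, at 331 CPM, followed by LPM at 312, MHC class II macrophages at 297, B-2 cells (follicular B cells marked by Ighd and Fcer2a) at 275 and cDC2 at 272. In the Cd36-/- library B-2 cells were highest at 281 CPM, and the macrophage groups followed at 244 to 259. The B-2 interval (264 to 298) overlapped that of MHC class II macrophages (240 to 274), so this change of order is partly within counting error. LPM, MHC class II macrophages, B-2 cells and cDC2 of the fl/fl library each overlapped the next in the order within counting error. In both libraries the other B cells (173 and 170 CPM), T cells and NK cells came last of the classes with 200 cells. Neutrophils lay above all of them.

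**Figure D1:**
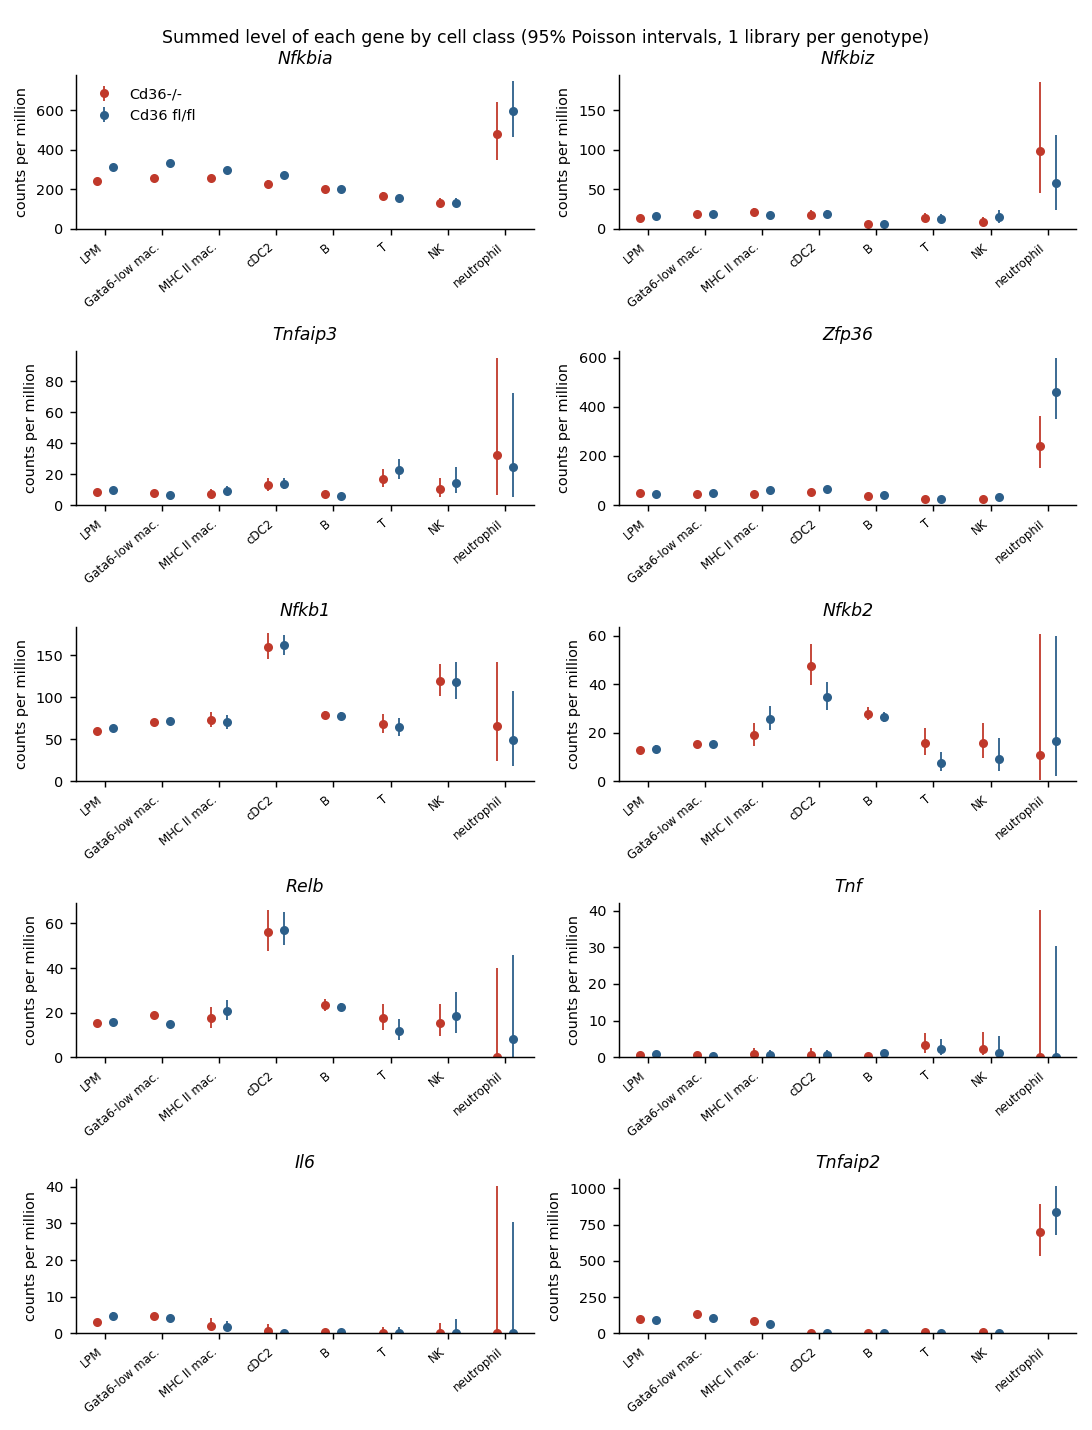
Level of each of the 10 genes (CPM, linear axis from 0) in 8 cell classes, with the Cd36-/- library in red and the fl/fl library in blue; points are summed levels of 1 library and bars exact 95% Poisson intervals. Nfkbia is lower in red in the 3 macrophage groups and level in B, T and NK cells, Relb and Nfkb1 are highest in cDC2, and neutrophil bars are wide because few UMIs stand behind them.

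Among the macrophage clusters the Nfkbia ratio ranged from -0.63 to -0.03. Clusters are called by leading genes. The LPM cluster led by Marco, a scavenger receptor, had 243 and 330 CPM, a log2 ratio of -0.44 (-0.50 to -0.39). Cycling LPM had 172 and 267 CPM, -0.63 (-0.79 to -0.48). Of all genes compared in the Marco cluster, 5.11% were at least 20% lower and 2.43% at least 25% higher. The LPM cluster led by Alox15, which encodes a lipid-oxidising enzyme of resident peritoneal macrophages, had 280 and 285 CPM, -0.03 (-0.13 to 0.07). Of the 8 macrophage clusters and groups this was the 1 whose interval held 0. The median log2 ratio of all 4653 genes compared there was 0.10, with 24.5% of genes at least 25% higher and 8.85% at least 20% lower, and relative to that median Nfkbia stood at -0.13. The cells of that cluster differed between the libraries in other ways: Saa3, an acute phase protein, had 9771 CPM in the Cd36-/- and 29612 CPM in the fl/fl library. Their part in the Nfkbia value was not tested.

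Macrophages with low Gata6 showed a narrower range. The cluster led by Folr2, a folate receptor, had 308 and 361 CPM, a log2 ratio of -0.23 (-0.30 to -0.17). The clusters led by Chil3 with Arg1 and by Chil3 with Ccr2, the latter the receptor that brings monocytes from blood, had ratios of -0.45 (-0.52 to -0.38) and -0.35 (-0.43 to -0.28). The cycling cluster had -0.35 (-0.43 to -0.27). All 4 clusters were thus lower in the Cd36-/- library, with the Folr2 cluster highest in level in both libraries and the least different.

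**Figure D2:**
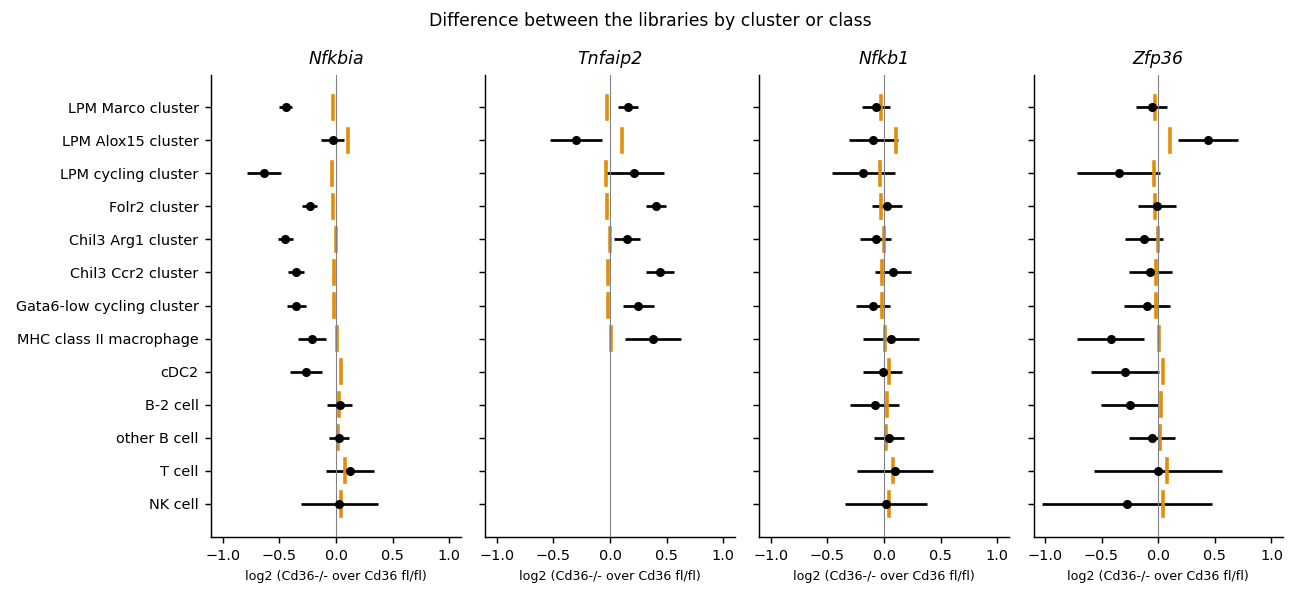
Log2 ratio (Cd36-/- over fl/fl) of the 4 genes compared in macrophages, in 13 clusters and classes; points are ratios of summed counts with 95% counting intervals, and orange bars the median of all genes compared there (no point where the gene was under 20 CPM). Nfkbia lies well left of 0 in every macrophage cluster except the LPM Alox15 cluster (-0.03), and Tnfaip2 right of 0 in every macrophage cluster except that one.

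The lower Nfkbia level was spread over the cells. With every cell thinned to 5000 UMIs (7795 and 6271 macrophages; 1613 and 1212 were shallower and left out), macrophages held 1.27 UMIs of Nfkbia on average (SD 1.47 over cells) in the Cd36-/- library and 1.61 (SD 1.62) in the fl/fl library. Cells with no Nfkbia UMI made up 36.7% and 26.6%, cells with 1 UMI 30.5% and 30.5%, and cells with 6 or more 1.82% and 2.47%. The whole distribution thus lay lower, and the 10 cells with the most UMIs held 1.00% and 1.03% of all Nfkbia UMIs before thinning. In B cells at the same depth, 43.5% and 44.8% had no Nfkbia UMI. Without thinning, 74.5% (73.6 to 75.3, exact Clopper-Pearson) and 83.5% (82.6 to 84.3) of macrophages had at least 1 Nfkbia UMI, at median depths of 8211 and 9216. Thinned to 1500 UMIs the shares were 29.0% and 35.8%. No class lacked Nfkbia, so no class gives its background share.

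**Figure D3:**
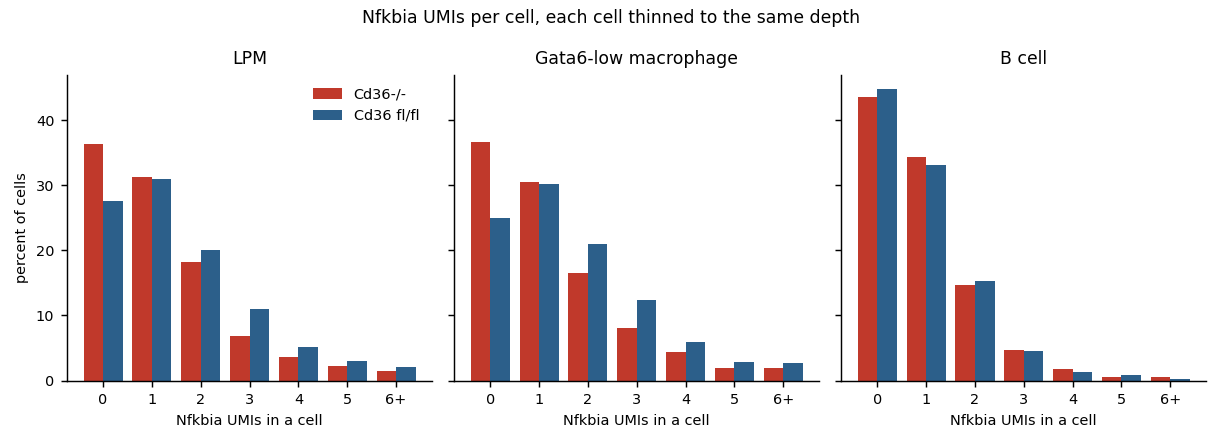
Share of cells (percent) by the number of Nfkbia UMIs in a cell, for LPM, macrophages with low Gata6 and B cells, each cell thinned to 5000 UMIs; red bars are the Cd36-/- and blue bars the fl/fl library. In LPM 36.4% of Cd36-/- and 27.6% of fl/fl cells had none, in macrophages with low Gata6 36.7% and 25.0%, and in B cells 43.5% and 44.8%.

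Zfp36, the mRNA decay factor, was close between the libraries in macrophages, at 45.6 and 47.9 CPM, a log2 ratio of -0.07 (-0.14 to -0.00). Its ratio varied among the groups. It was -0.42 (-0.71 to -0.13) in MHC class II macrophages (157 and 261 UMIs) and 0.44 (0.17 to 0.70) in the LPM Alox15 cluster (339 and 183 UMIs). B-2 cells had 52.5 and 62.6 CPM, -0.25 (-0.51 to -0.00). Zfp36 was at its highest in neutrophils, at 239 and 462 CPM from 22 and 56 UMIs, a log2 ratio of -0.95 (-1.73 to -0.22) in cells with median depths of 720 and 906 UMIs. These neutrophils are the deeper ones, since no deposited barcode held fewer than 500 UMIs.

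Nfkbiz and Tnfaip3 were low in macrophages and close between the libraries. Nfkbiz had 17.2 and 17.8 CPM, a log2 ratio of -0.04 (-0.15 to 0.07), and Tnfaip3, from 642 and 578 UMIs, -0.01 (-0.17 to 0.16). In LPM both were somewhat lower in the Cd36-/- library: Nfkbiz had a log2 ratio of -0.24 (-0.45 to -0.04) and Tnfaip3 -0.27 (-0.53 to -0.01). In the Folr2 cluster Tnfaip3 was higher, from 128 and 95 UMIs, 0.61 (0.21 to 1.00), while Nfkbiz was level at 23.7 and 23.5 CPM. Apart from Nfkbiz in the Folr2 cluster, these values are under the 20 CPM set for a comparison. Among the classes with 200 cells, T cells had the most Tnfaip3, with 17.0 and 22.6 CPM, and B cells the least Nfkbiz, with 5.67 and 6.56 CPM. The T cell interval for Tnfaip3 overlapped that of the next class in both libraries, cDC2 in the Cd36-/- and NK cells in the fl/fl library. The B cell interval for Nfkbiz overlapped that of NK cells in the Cd36-/- library. These ranks were thus not separated beyond counting error. In neutrophils Nfkbiz had 97.9 and 57.8 CPM from only 9 and 7 UMIs.

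Nfkb1 differed more between cell types than between the libraries. This gene, which encodes the precursor of the most common partner of RelA, had 66.5 and 68.8 CPM in macrophages, a log2 ratio of -0.05 (-0.10 to 0.01). The cDC2 had 160 and 162 CPM, 2.41-fold and 2.35-fold the macrophage level in their own library. NK cells came next with 119 and 118 CPM, and B cells had 78.7 and 78.2. The order of cDC2 first and NK cells second held in both libraries beyond counting error. None of the 13 clusters and classes had an Nfkb1 ratio whose interval left out 0.

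Relb, the partner of Nfkb2 in the alternative pathway and a factor needed for dendritic cells, was highest in cDC2, with 56.3 and 57.2 CPM, a log2 ratio of -0.02 (-0.33 to 0.27). This was 3.20-fold and 3.66-fold the macrophage level. B-2 cells followed with 28.6 and 31.1 CPM. In macrophages Relb stood at 17.6 and 15.7 CPM, 0.17 (0.06 to 0.28); in those with low Gata6 it was 19.0 and 15.1 CPM, 0.33 (0.19 to 0.48), and in LPM 15.2 and 15.7 CPM, -0.05 (-0.25 to 0.15). The higher Relb level was thus on the side of macrophages with low Gata6, at levels mostly under 20 CPM. It could be compared in MHC class II macrophages, at 17.4 and 20.7 CPM, -0.25 (-0.75 to 0.23), and in the Folr2 cluster. There it had 24.6 and 18.3 CPM, 0.42 (0.17 to 0.69); of all genes there 3.58% were at least 25% higher and 6.65% at least 20% lower.

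Nfkb2 was highest in cDC2 and B-2 cells, whose order differed between the libraries: 47.5 and 41.6 CPM in the Cd36-/-, and 34.8 and 45.1 CPM in the fl/fl library. In cDC2 the log2 ratio was 0.45 (0.10 to 0.80), from 130 and 146 UMIs, the 1 gene of the 5 compared there that was at least 25% higher, while 0 were at least 20% lower; of all 4483 genes compared in cDC2, 10.1% and 6.20% were. The size of this ratio depended on the processing: it was 0.84 with cells thinned to 1500 UMIs, but 0.22 with doublets kept and 0.25 with the genes in the clustering, both short of 25% higher. With the genes in the clustering, cDC2 were merged with MHC class II macrophages, so the 0.25 is the ratio of a mixed class. The part of the T cell markers named above was not tested. Macrophages had 14.6 and 15.2 CPM, -0.06 (-0.18 to 0.06). T cells had 34 and 17 UMIs, or 15.6 and 7.40 CPM, a log2 ratio of 1.08 (0.20 to 2.01), under the level set for a comparison.

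The cytokine genes were barely detected on this day. Tnf had 46 UMIs in 41 of the 9408 macrophages of the Cd36-/- library and 43 UMIs in 39 of the 7483 of the fl/fl library, which is 0.436% (0.313 to 0.591) and 0.521% (0.371 to 0.712) of cells. No class exceeded 3.21 CPM of Tnf. T cells had 7 and 5 UMIs and NK cells 3 and 1. B cells had 6 and 26 UMIs, a log2 ratio of -1.33 (-2.90 to -0.01). Neutrophils had no UMI of Tnf or Il6, which at their depth allows up to 32.6 and 24.8 CPM, so a moderate level would not have been detectable there. Shares of cells this small include free RNA, and no difference in Tnf between the libraries was detectable in macrophages at this depth.

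Il6 was found mostly in macrophages, with 319 and 311 UMIs there of 346 and 322 in all cells used. They lay in 278 and 267 macrophages, 2.95% (2.62 to 3.32) and 3.57% (3.16 to 4.01), against 0.136% and 0.141% of B cells at median depths of 3656.5 and 4282. The level was 3.98 and 4.32 CPM, a log2 ratio of -0.12 (-0.35 to 0.11). LPM had 85 and 125 UMIs, -0.70 (-1.12 to -0.29), and macrophages with low Gata6 227 and 179 UMIs, 0.14 (-0.15 to 0.43). The lower LPM value was largest in the cycling LPM, with 6 and 25 UMIs, -1.71 (-3.29 to -0.39). The 10 LPM with the most Il6 held 22.4% and 22.4% of its UMIs there. T cells and NK cells had none, which allows up to 1.38 and 1.31 CPM in T cells and 2.34 and 3.11 CPM in NK cells.

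Tnfaip2 differed in the other direction from Nfkbia in macrophages. It was a gene of macrophages and neutrophils: macrophages had 119 and 101 CPM, neutrophils 696 and 834 CPM, and cDC2, B, T and NK cells at most 9.34 CPM. A Tnfaip2 UMI was found in 50.7% and 48.8% of macrophages against 1.39% and 1.23% of B cells. The log2 ratio in macrophages was 0.24 (0.19 to 0.28), or 0.16 with cells thinned to 1500 UMIs. Macrophages with low Gata6 had 132 and 109 CPM, 0.28 (0.23 to 0.34), and MHC class II macrophages 82.4 and 63.4 CPM, 0.38 (0.13 to 0.62). LPM had 101 and 94.4 CPM, 0.10 (0.02 to 0.18), which became -0.04 after thinning, so its direction in LPM depends on the depth.

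By cluster the Tnfaip2 ratio was highest in the Chil3 Ccr2 cluster, at 0.44 (0.32 to 0.57), and the Folr2 cluster, at 0.41 (0.32 to 0.50). The Folr2 cluster also had the highest level among macrophages, 194 and 146 CPM. The Gata6-low cycling cluster had 0.25, the LPM Marco cluster 0.16 and the Chil3 Arg1 cluster 0.15. In the LPM Alox15 cluster it was lower in the Cd36-/- library, at 49.6 and 61.2 CPM, -0.30 (-0.53 to -0.07). The summed level of 7 neutrophil markers in macrophages, where free RNA could add Tnfaip2, was 100 and 108 CPM, and that of 5 red cell genes 16.3 and 3.55 CPM. Tnfaip2 was also higher in Cd36-/- T cells, with 16 and 4 UMIs, 2.08 (0.44 to 4.12), and NK cells, with 12 and 2 UMIs, 2.17 (0.01 to 5.38). Both are under the 20 CPM set for a comparison. There 8 macrophage markers summed to 704 and 446 CPM in T cells and 792 and 552 CPM in NK cells. The 7 neutrophil markers summed to 116 and 47.0 CPM in T cells and 23.4 and 18.6 CPM in NK cells. The part of free RNA in these T and NK cell values was not tested. The macrophage ratio ranged from 0.16 to 0.26 over the alternatives tried, free RNA subtraction among them. The part of free RNA in the macrophage difference was not tested further.

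In macrophages 4 of the 10 genes reached 20 CPM: Nfkbia, Nfkb1, Zfp36 and Tnfaip2. Of these, 1 was at least 20% lower in the Cd36-/- library and 0 at least 25% higher; of all 4590 genes compared, 2.37% and 1.44% were. None passed 1.5-fold in either direction, against 0.436% lower and 0.218% higher of all genes. The median log2 ratio of the 4 was -0.06, and that of all genes -0.01. In LPM and in macrophages with low Gata6, Nfkbia was again the 1 of 4 that was at least 20% lower, beside 3.91% and 3.24% of all genes; 0 of 4 were at least 25% higher, beside 2.37% and 1.83%. With classes made from marker UMIs per cell in place of clusters, Nfkbia in macrophages with low Gata6 had a ratio of -0.30, just short of 20% lower. In B cells 0 of 5 passed either size, beside 3.26% lower and 3.60% higher of all genes. In T cells 1 of 4 was lower, beside 7.68% of all genes, and 0 higher, beside 16.1%. That gene, Tnfaip3, had 37 and 52 UMIs, a log2 ratio of -0.42 (-1.06 to 0.22), and was at 0.04 with classes made from marker UMIs per cell. In NK cells 0 of 3 passed, beside 15.4% lower and 19.8% higher. In MHC class II macrophages 2 of 7 were lower (Zfp36 and Nfkb2) and 1 higher (Tnfaip2), beside 7.04% and 7.02%; thinned to 1500 UMIs, the Nfkb2 ratio there went from -0.44 to 0.10 and that of Zfp36 from -0.42 to -0.18. With classes made from marker UMIs per cell Zfp36 was at -0.16 there, so the call of neither gene held under every alternative. The 4 genes thus did not share a direction, and the other 6 of them were too low in macrophages to be compared.

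The rest of the pathway was taken from 4 lists. Of 6 other REL and IkB genes, 4 could be compared in macrophages, with a median log2 ratio of 0.11 and none past the sizes above. Rela, the main activating subunit, was at 36.6 and 39.3 CPM, -0.10, Rel at 0.07 and Nfkbib, another cytoplasmic IkB, at 0.18. Of 22 receptors, adaptors and kinases, 9 could be compared, with a median of -0.04 and none past them; Cd14, the co-receptor for microbial lipids, was at 0.05, the tumour necrosis factor receptor Tnfrsf1a at 0.00 and the kinase Ikbkb at -0.04. Of 17 other feedback inhibitors, 12 had a median of -0.02, again with none past them. Among them the Zfp36 relatives Zfp36l1 and Zfp36l2 were at -0.16 and 0.05, and the phosphatase Dusp1, which is also in the neighbouring lists below, at -0.01. The summed Dusp1 value joined opposite directions: -0.33 (-0.39 to -0.27) in LPM and -0.82 in the LPM Alox15 cluster, against 0.22 (0.16 to 0.27) in macrophages with low Gata6 and 0.52 (0.28 to 0.75) in MHC class II macrophages. These counts hold for macrophages summed. In LPM 2 of the 12 feedback inhibitors compared were at least 20% lower, beside 3.91% of all genes. In the LPM Alox15 cluster 4 of 11 were, beside 8.85%. In MHC class II macrophages each of the 3 lists had 1 gene at least 20% lower, of 4, 9 and 11 compared. The share of all genes there was 7.04%. In that class 1 of the 11 feedback inhibitors, Dusp1, was at least 25% higher, beside 7.02%. In the Folr2 cluster 1 of 12 feedback inhibitors and 1 of 10 receptors, adaptors and kinases were at least 25% higher, beside 3.58% of all genes. There 0 of either list were at least 20% lower, beside 6.65%. In the LPM Alox15 cluster 1 of 8 receptors, adaptors and kinases was higher by this size and 1 lower, beside 24.5% and 8.85%. Both Chil3 clusters also had genes of these lists at least 25% higher.

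Other NF-kappaB target genes were mostly higher. Of 30 listed, 12 could be compared in macrophages: 10 were higher and 2 lower, with a median of 0.24 against -0.01 for all genes, and 2 were at least 25% higher and 1 at least 20% lower. Of all genes compared, 46.6% were higher at any size, and 1.44% and 2.37% passed these sizes. Not every cluster had this direction: 6 were higher and 7 lower in the LPM Alox15 cluster, and 4 higher and 7 lower in cycling LPM. Of all genes compared in these clusters, 62.2% and 44.0% were higher. Saa3 was at 25574 and 19996 CPM, a log2 ratio of 0.35, Sod2, a mitochondrial antioxidant enzyme, at 227 and 187 CPM, 0.28, and Bcl2a1b, a survival gene with near-identical copies that can share its reads, at 0.26. The genes past these sizes beside Saa3, named after their values were seen, were the neutrophil chemokine Cxcl2, at 0.46 (0.39 to 0.54), and the apoptosis inhibitor Birc3, at -0.51 (-0.59 to -0.43). Saa3 was also higher in B cells, at 2463 and 1571 CPM, and the part of free RNA in the values of this list was not tested. Nfkbia therefore lay on the side of Birc3, and Tnfaip2 on that of the larger number. In B cells 11 of the list could be compared, with a median of 0.07. There 8 were higher and 3 lower, beside 54.0% and 46.0% of all genes. Of the 11, 2 were at least 25% higher and 0 at least 20% lower, beside 3.60% and 3.26% of all genes. The 2 were Saa3 and Ccl5, each at 0.65, the latter named after its value was seen.

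Values of 2 neighbouring lists are given because their genes can move with handling or with glucocorticoids, hormones that are also known to induce Nfkbia. Immediate early and handling genes had a median of -0.05 over 15 genes in macrophages, with Jund at 0.10, Klf2 at -0.10 and the chaperone Hspa8 at -0.31. Of the 15, 1 was at least 25% higher and 2 at least 20% lower, beside 1.44% and 2.37% of all genes. Named after their values were seen, these were Atf3 at 0.53 and the chaperone genes Dnajb1 at -0.40 and Hsph1 at -0.90. Of 15 glucocorticoid-induced genes, 9 could be compared, 7 of them lower, beside 53.4% of all genes, with a median of -0.11. Of the 9, 4 were at least 20% lower and 0 at least 25% higher, beside 2.37% and 1.44% of all genes. Tsc22d3, a classic glucocorticoid-induced inhibitor of inflammation, had 159 and 262 CPM, a log2 ratio of -0.72 (-0.75 to -0.69); Mt1 was at 0.05 and Anxa1 at -0.01. The others at least 20% lower, named after their values were seen, were Per1 at -2.03, Fkbp5 at -1.47 and Klf9 at 49.9 and 99.5 CPM. In single groups some of the list moved the other way. In MHC class II macrophages 5 of 10 were at least 20% lower and 3 at least 25% higher, beside 7.04% and 7.02% of all genes. The 3, named after their values were seen, were Dusp1 at 0.52, Sgk1 at 0.51 and Mt1 at 0.43. In the Folr2 cluster 4 of 10 were lower and 3 higher by these sizes, beside 6.65% and 3.58%.

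The glucocorticoid-induced genes lower in summed macrophages (Tsc22d3, Per1, Fkbp5 and Klf9) resembled Nfkbia in some groups and not in others. In the LPM Alox15 cluster, where Nfkbia was level, Fkbp5 had a ratio of -0.09 (-0.28 to 0.09) and Klf9 -0.23, but Tsc22d3 -0.67 and Per1 -1.07. In B cells, where Nfkbia was at 0.02, Tsc22d3 was lower at -0.25 (-0.30 to -0.21). The 4 genes of the list compared in B cells were in part different ones. They were Tsc22d3, Ddit4 at -0.96, Cxcr4 at -1.13 and Mt1 at 0.21, with a median of -0.60. The part of the glucocorticoid-induced genes in the Nfkbia difference was not tested.

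**Figure D4:**
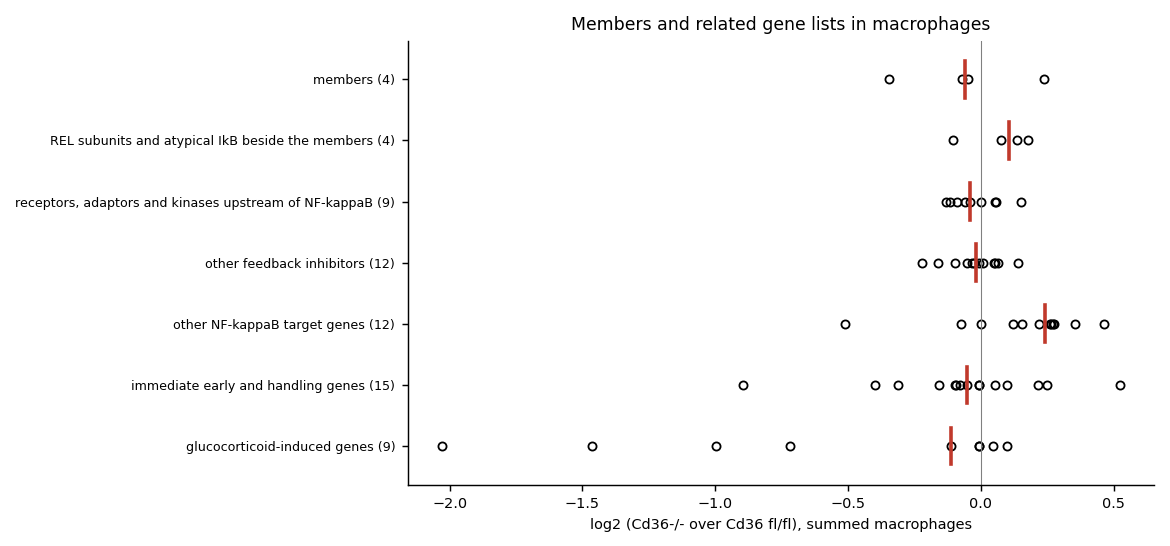
Log2 ratio (Cd36-/- over fl/fl) in summed macrophages of each gene with at least 20 CPM, by list, with the number of genes in parentheses; open circles are genes and red bars list medians. Other NF-kappaB target genes lie mostly right of 0 (median 0.24), and 4 glucocorticoid-induced genes lie far to the left, from -2.03 to -0.72.

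The genes most like Nfkbia in level over 13 clusters and classes, among 6948 genes, were Atp6v0a1, a proton pump subunit of lysosomes, Pkib, Tifa, an adaptor of NF-kappaB signalling, P2rx4, an ATP-gated channel, and Ctss, the protease cathepsin S. Their Pearson correlations on log2(CPM + 10) were at least 0.83 in each library, with 0.92 and 0.92 for Atp6v0a1. For Nfkbiz they were AI413582, Chmp4b, Glud1, Sh3bp1 and Wdr26, with 0.92 and 0.92 for AI413582. The points share a library and differ in depth, and they are few, so these values are a description. For Tnf the level ranged only from 0 to 3.21 CPM, too low for likeness to be read.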

How the data were processed

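Droplet single-cell RNA sequencing (10x Genomics 3′ v2, per the labels' protocols) gave 1 library per genotype, each a pool of 4 replicates. The matrices the authors deposited contain unnormalized UMI counts for each gene in each barcode. A header line gives the software version as 3.0.0, while Cell Ranger and mm10 are named in the submitters' processing notes, and the annotation release is not given in the sources used here. Of 31053 gene IDs, 30934 are in GENCODE M21 (same build), used only for positions.

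A barcode was dropped if fewer than 200 genes were detected (36 and 38 barcodes, Cd36-/- first) or if mitochondrial UMIs passed 10% (509 and 773). Scrublet in scanpy 1.11.5 marked 977 (6.11%) and 728 (4.94%) of the rest as doublets, which were removed. Cells of both libraries were clustered together (2000 variable genes, 40 components, 20 neighbours, leidenalg 0.10.2 at resolution 1, 20 clusters), with the 10 genes and the listed genes, 120 in all, kept out. Classes are clusters named by marker lists; limits on summed marker CPM (C1qa over 1000 for macrophages, Gata6 over 75 for LPM, Retnla over 2000 for MHC class II macrophages) were set after the clusters had been seen. A macrophage-like cluster led by haemoglobin genes and a cluster with T and B cell genes stayed unnamed. Type 1 conventional dendritic cells (39 and 34 cells), with under 50 cells, are not described.

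Counts were summed per class and library and divided by the class total (CPM). Levels have exact Poisson, ratios exact conditional binomial and shares exact Clopper-Pearson intervals at 95%. A count of 0 was taken to allow 3 counts. Median depths per class ran from 720 to 10645 UMIs per cell. The calculation was tested on simulated counts that held counting error alone, so it could not show whether the intervals are wide enough for these cells. The genes, lists and rules were chosen with earlier results of these data known. All 10 genes are reported, and of each list the 3 with the highest mean CPM in macrophages are named. Other filters, clusterings, scalings, thinning, free RNA subtraction (6.52% to 23.2% of a class's UMIs, estimated from C1q or Cd79 genes) and levels for a comparison were tried.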

Additional observations from a re-analysis of the deposited data

Results flagged for a closer look

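The library difference of Zfp36 had opposite directions in different cells, each with a counting interval that left out 0. Its log2 ratio (Cd36-/- over fl/fl) was 0.44 in the LPM Alox15 cluster, against -0.42 in MHC class II macrophages and -0.25 in B-2 cells. In MHC class II macrophages it was -0.18 with cells thinned to 1500 UMIs and -0.16 with classes made from marker UMIs per cell. The latter class had only 72 and 135 cells, most of them outside the clustered class. Tnfaip2 likewise had a ratio of -0.30 in the LPM Alox15 cluster, against 0.44 in the Chil3 Ccr2 cluster, 0.41 in the Folr2 cluster, 0.38 in MHC class II macrophages, 0.25 in the Gata6-low cycling cluster, 0.16 in the LPM Marco cluster and 0.15 in the Chil3 Arg1 cluster. With 1 library per genotype these differences between cell groups were not tested, and the intervals cover counting error only. The LPM Alox15 cluster also had the median of all genes farthest from 0, at 0.10, among the macrophage clusters.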

How the results depend on the processing

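Among the class ratios recomputed, no ratio whose interval left out 0 changed direction except Tnfaip2 in LPM, which was 0.10 and became -0.04 with cells thinned to 1500 UMIs. The Nfkbia log2 ratio in macrophages ranged from -0.36 to -0.34 and that in B cells from -0.00 to 0.05 over all alternatives. With the same thinning, Tnfaip2 in macrophages was 0.16, Nfkbia in cDC2 -0.11, and the share of macrophages with an Nfkbia UMI 29.0% and 35.8%. The log2 ratio of cDC2 over macrophages depended on how classes were made: with classes from marker UMIs per cell, Relb had 1.21 (Cd36-/-) and 1.49 (fl/fl) and Nfkb1 1.44 (Cd36-/-); with the genes themselves in the clustering, Relb had 1.27 and 1.66, Nfkb1 1.05 and 1.04, and Nfkb2 1.38 (Cd36-/-), where cDC2 were merged with MHC class II macrophages. Outside these, the counts of the 10 genes at least 20% lower or 25% higher in macrophages, 1 and 0, were the same under every alternative. In cDC2 they ranged from 0 to 2 higher and from 0 to 1 lower. MHC class II macrophages got no value with a mitochondrial limit of 20% or with the genes in the clustering, since no cluster met their limits. No paired analysis was possible because each genotype is 1 library, and for the same reason no replicate could be left out. Counting the haemoglobin-led cluster as macrophages and leaving out shared barcodes were alternatives chosen after seeing the data. Depth limits Tnf, Il6, Tnfaip3 and all neutrophil values.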
